A study of Rattus norvegicus with 12 samples.

Results

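The set described here holds 164 transcripts of rat lung that stood higher in every library from animals kept in a hypobaric chamber than in any library from normoxic animals. They were chosen by their measured values among the 15435 transcripts that reached 1 FPKM (a unit of abundance that corrects fragment numbers for transcript length and for how many fragments each library mapped) in at least 3 of 12 libraries. A transcript entered when the lowest of the 9 chamber libraries lay above the highest of the 3 normoxic ones, and when its mean log2(FPKM + 1) over the 9 exceeded that over the 3 by 0.5 or more. This difference is called the rise, and 0.5 corresponds to 1.41-fold on the scale of FPKM + 1. The opposite rule, for transcripts lower in every chamber library, was met by 251. Because the rule used the distance between chamber and normoxia, that distance is given below as a description. The tests concern the chamber groups among themselves, which the rule treated alike. Their variance was estimated over all 12 libraries, so it includes the spread within the normoxic group, which the rule favoured to be small.

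Whole lung came from adult rats of the strain labelled SD, in 4 groups of 3 libraries. Group N stayed for 2 weeks at the laboratory altitude of 400 m in air with 21% oxygen. Group H spent the whole of each day at a chamber pressure of 405 mmHg, which simulates about 5000 m. C3 and I3 lived under the pressure of H and also breathed 42% oxygen for 3 h per day, C3 in one continuous period and I3 intermittently. Reoxygenation was thus never given to N, and no group breathed enriched gas without hypoxia. The text of the study names random assignment of rats, but no source used here says that each library came from its own animal, so the p-values rest on variation between libraries, part or all of which may be technical.

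In lung, low oxygen constricts the small arteries, and when it lasts their walls thicken and the pressure in the pulmonary circulation rises. Cells sense the lack of oxygen mainly through the hypoxia-inducible factors, transcription factors that are broken down when oxygen is plentiful and that switch on genes of glycolysis, vessel growth and red cell production when it is not. Whole lung holds epithelium, endothelium, smooth muscle, fibroblasts, resident macrophages and blood. A higher level in it can therefore mean more RNA per cell or more cells of the type that makes the RNA, and in bulk tissue these cannot be told apart. The deposited table lists Ensembl transcript identifiers and does not pair them with genes, and 0 of 47357 genes in the reference table carried a rat Ensembl identifier. Roles of single transcripts, and the check of the labelled tissue against marker genes, were therefore not analysed here, and transcripts are named by identifier.

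Some libraries stood apart before any choice of transcripts. On the first principal component of the 15435 transcripts, which held 15.1% of the variance, the chamber libraries took values of 3.38 to 21.7. N replicate 2 was farthest from them, at -60.3, followed by N replicate 3 with -35.6, and N replicate 1 had -10.1, closest to the chamber libraries. On the second, with 10.99%, H replicate 3 (-36.4) and I3 replicate 3 (-39.4) lay apart from the others, which ranged from -10.2 to 25.7. The listed values summed to between 323894 and 361337 per library, which is not a measure of depth, and depth is unknown.

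Of the 15435 transcripts, 288, or 1.87%, had all 9 chamber libraries above all 3 N libraries, and 164 of these also met the rise of 0.5. The rise had a median of 0.83 and quartiles of 0.64 and 1.07, and it reached 3.09. In 114 members it lay under 1, in 45 between 1 and 2, and in 5 it was 2 or more. The rise is a difference of means, and a low N library can enlarge it. From the highest N library to the lowest chamber library, the log2 gap had a median of 0.17 and quartiles of 0.09 and 0.35. As a plain ratio of mean FPKM in the chamber to mean FPKM in N, the median was 2.1, and it was 2 or more for 89 members. The mean of a member over the 12 libraries ran from 0.591 to 294 FPKM with a median of 8.23, and over all transcripts tested it reached 5954 FPKM with a median of 7.4. In N, 35 members averaged under 1 FPKM, 77 between 1 and 10, and 52 at 10 or more. No member was listed at 0 in all 3 N libraries, and 5 were listed at 0 in at least 1 of them. The summed FPKM of the members was 2539, 2317 and 2422 in the N libraries and ran from 4426 to 5577 in the chamber libraries, which is 0.641% to 0.752% of the listed total in N and 1.34% to 1.69% in the chamber. The 10 most abundant members supplied 47% of the chamber sum.

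**Figure D1:**
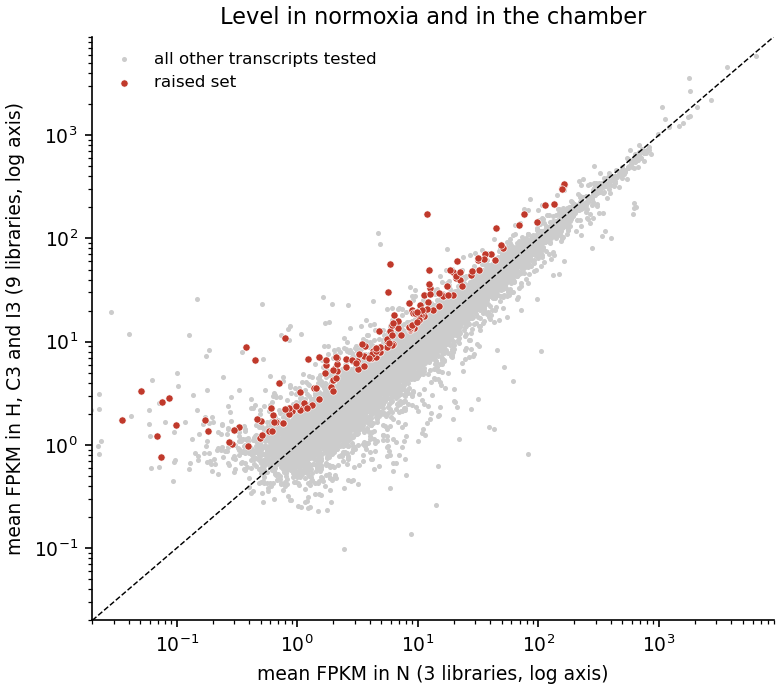
Each point is one of the 15435 transcripts, by its mean FPKM over the 3 N libraries (x, log axis) and over the 9 chamber libraries (y, log axis), with the 164 members in red and the line of equality dashed. Members lie above the line from under 1 FPKM up to 165 FPKM in N, and 52 transcripts with a mean of 0 or outside the axes, none of them a member, are not drawn.

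Values close to the limits of the rule were as follows. ENSRNOT00000072819, the member with the smallest rise (0.501), stood at 0.341, 0.436 and 0.394 FPKM in N, and its chamber libraries ran from 0.595 to 1.54. ENSRNOT00000084487, just outside with a rise of 0.499, stood at 7.1, 5.26 and 6.58 FPKM in N and at 7.31 to 11.3 in the chamber. In all, 124 transcripts had no overlap with N but a rise under 0.5. On the other side of the rule, 820 transcripts had a rise of 0.5 or more and failed because at least 1 chamber library lay within or below the range of N. ENSRNOT00000060642 was separated by the narrowest margin, 0.00087 on the log2 scale. Its highest N library and its lowest chamber library, H replicate 3, both stood at 7.14 FPKM after rounding. The transcript just outside the margin, ENSRNOT00000001464, was listed at 0 in all N and H libraries and in 3 of the other chamber libraries.

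With single libraries left out, the number of transcripts that qualified changed most for those of N. The highest N value of a member came from N replicate 1 for 63 members, from N replicate 3 for 62 and from N replicate 2 for 39. Without N replicate 1 the rule was met by 405 transcripts, 154 of them among the 164, and without N replicate 3 by 321, with 163 of the 164 among them. Without N replicate 2, the farthest out on the first component, it was met by 230. Of the 164, 152 were among them, the fewest with any single library left out. Leaving out a single chamber library gave 166 to 203. A smaller number of libraries to be passed makes the rule easier to meet by construction, and N has 3 libraries where the chamber has 9. Without H replicate 3 and I3 replicate 3 together it was met by 205, of which 157 were members.

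In both members with the largest rise, the chamber libraries lay far apart. ENSRNOT00000006200 had the largest, 3.09. It stood at 2.54, 17.1 and 16.2 FPKM in N, at 332, 346 and 19 in H, at 384, 33.8 and 35.1 in C3, and at 30.6, 348 and 24 in I3. It thus took a value of 332 or more in 4 chamber libraries, from all 3 groups, and a value of 35.1 or less in the other 5, with no library in between. ENSRNOT00000090914 had the next largest rise, 2.84. The N libraries held it at 4.85, 4.52 and 8.26 FPKM and the H libraries at 40.6, 19.4 and 114. C3 libraries held 98.7, 85.9 and 64 FPKM and I3 libraries 21.2, 44.3 and 22.5. All C3 libraries lay above all I3 libraries for this transcript, while H spanned both. ENSRNOT00000052288, next in size with a rise of 2.81 and named after its values were seen, was more even. It stood between 0.212 and 0.604 FPKM in the N libraries and between 4.89 and 13.1 in the chamber libraries.

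The 2 most abundant members varied less between the chamber libraries than ENSRNOT00000006200 and ENSRNOT00000090914. ENSRNOT00000057386 stood at 209, 119 and 165 FPKM in N and at 417, 263 and 342 in H. In C3 it stood at 418, 417 and 369, and in I3 at 245, 276 and 287. Here too every C3 library exceeded every I3 library, and H overlapped with both. ENSRNOT00000020357 stood at 150, 203 and 142 FPKM in N, at 337, 377 and 377 in H, at 346, 252 and 322 in C3 and at 353, 259 and 325 in I3. Its chamber groups overlapped, with means of 364 ± 23.2 FPKM for H, 307 ± 48.7 for C3 and 312 ± 48.5 for I3 (SD, n = 3).

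**Figure D2:**
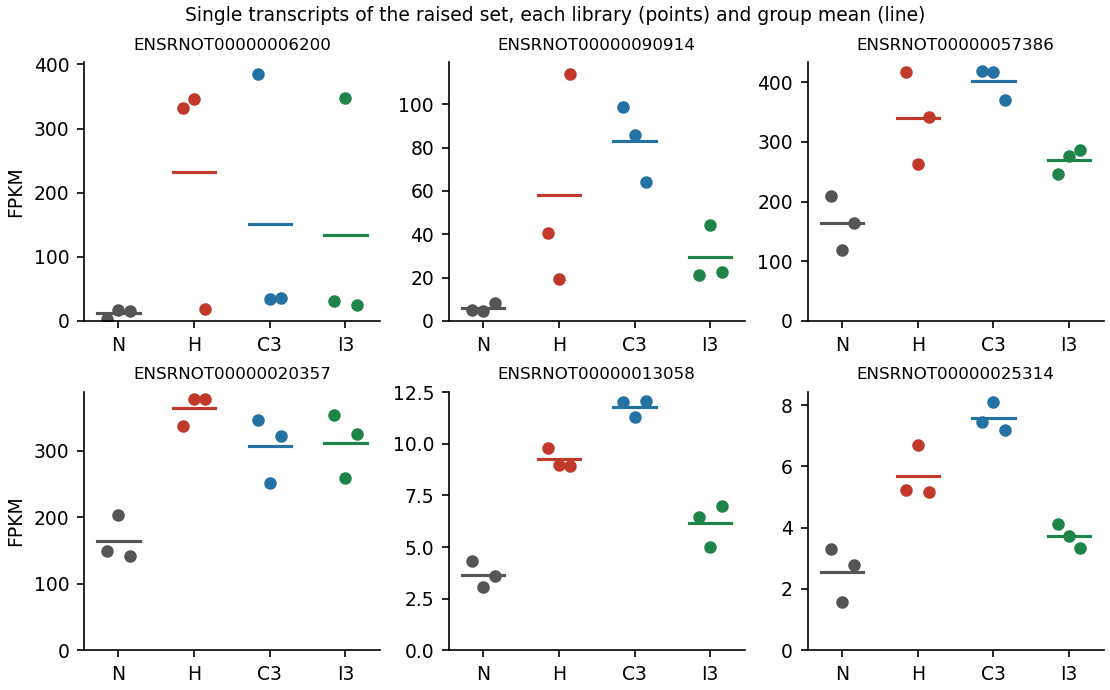
FPKM (y, linear axis from 0) of 6 members in N, H, C3 and I3, with a point per library and a line at the group mean. They are the 2 with the largest rise, the 2 most abundant, and the 2 lower in I3 than in C3 with the smallest p. ENSRNOT00000006200 splits into libraries at 332 or more and libraries at 35.1 or less within each chamber group, and the last pair have all I3 libraries below all C3 and H libraries.

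The spread within groups was similar to that of other transcripts. The median SD of members on the log2 scale was 0.17 for N and C3 and 0.24 for H and I3. Over all transcripts tested it was 0.23 for N, 0.17 for C3 and 0.21 for H and I3. The smaller spread in N is part of what the rule asks for, since a single high N library disqualifies a transcript. The highest chamber library of a member exceeded the lowest by a median of 1.98-fold, and by more than 4-fold for 21 members. Among those 21, the lowest chamber value came from I3 for 13 members, 7 of them from I3 replicate 2. The highest came most often from H replicate 3 and I3 replicate 3, with 5 members each. All transcripts with so wide a spread were not counted.

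As a description of the contrast that chose them, limma (linear models with a shared estimate of variance, adjusted over all transcripts) placed 33 members higher in H than in N with an adjusted p under 0.05. It called 59 higher in C3 and 7 higher in I3. Over all transcripts tested the same calls made up 0.22%, 0.486% and 0.0454%, and nothing is read from the excess, since the rule used these differences. By the same test 100 members were called in none of the 3 comparisons. The comparisons share the N libraries. The median difference of the members from N was 0.90 for H, 0.85 for C3 and 0.73 for I3, where the median over all transcripts was -0.02, -0.04 and -0.02. The calls depended on single libraries. Those for H numbered 9 to 20 without N replicate 2, N replicate 3 or any one H library, in fits that called 17 to 38 of all 15435 transcripts in either direction, where 52 were called with every library. Those for C3 numbered 10 to 21 without N replicate 2, N replicate 3 or any one C3 library, with 21 to 55 of all transcripts called in place of 168. Those for I3 numbered 3 or 4, with 8 to 19 of all transcripts called in place of 14, without N replicate 3, H replicate 2, I3 replicate 2 or any one C3 library, which enters by way of the pooled variance.

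The 3 chamber groups did not rank alike within the set. I3 had the lowest mean of the 3 in 87 members (53%), H in 39 and C3 in 38. Over all transcripts tested, I3 was lowest in 30.6%, H in 30.7% and C3 in 38.7%. The highest mean was that of H in 75 members (45.7%), of C3 in 61 (37.2%) and of I3 in 28 (17.1%). The same shares of all transcripts were 34.3% for H, 31.9% for C3 and 33.8% for I3. The orders that put I3 last took up most of the set. H above C3 above I3 held 48 members (29.3%), against 14.8% of all transcripts. C3 above H above I3 held 39 (23.8%), against 15.8%. I3 above C3 above H held 17 (10.4%), against 14.6%. I3 lay below H in 114 members (69.5%) and below C3 in 109 (66.5%), where 50.2% and 46.7% of all transcripts did. C3 lay below H in 86 members (52.4%), and in 53.4% of all transcripts. These counts are descriptions, because members share libraries and are not replicates.

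**Figure D3:**
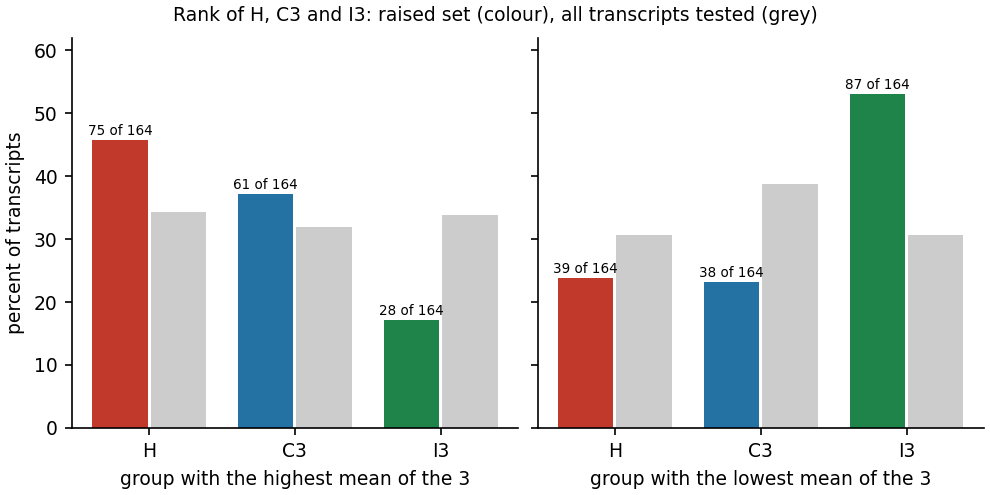
Percent of transcripts (y) in which H, C3 or I3 had the highest (left) or the lowest (right) mean log2(FPKM + 1) of the 3 chamber groups, for the 164 members (coloured bars, with counts) and for all 15435 transcripts tested (grey). I3 is the lowest group in 87 members and the highest in 28, while over all transcripts it is lowest in 30.6% and highest in 33.8%.

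The place of I3 was visible in each of its libraries. The mean over members of the deviation from the chamber mean, on the log2 scale, was -0.11, -0.11 and -0.06 in the 3 I3 libraries. It was 0.07, -0.04 and 0.16 in H and 0.09, 0.03 and -0.03 in C3. All 3 I3 libraries lay below all 6 others, while H and C3 overlapped. Over all transcripts tested the same quantity stayed between -0.04 and 0.04 in every chamber library. I3 replicate 3 was the only I3 library above 0 there, at 0.04. H replicate 3, which lies far out on the second component, was the highest of the 9 libraries for 36 members (22%), against 12.7% of all transcripts. I3 replicate 3, which lies beside it there, was the highest for 24 members (14.6%), against 14.7% of all transcripts, and the lowest for 32 (19.5%), against 10%. I3 replicate 1 was the highest for 3 members (1.83%), against 11.4% of all transcripts, and the lowest for 26 (15.9%), against 10.8%. I3 replicate 2 was the highest for 11 members (6.71%), against 11.2%, and the lowest for 33 (20.1%), against 12.3%.

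**Figure D4:**
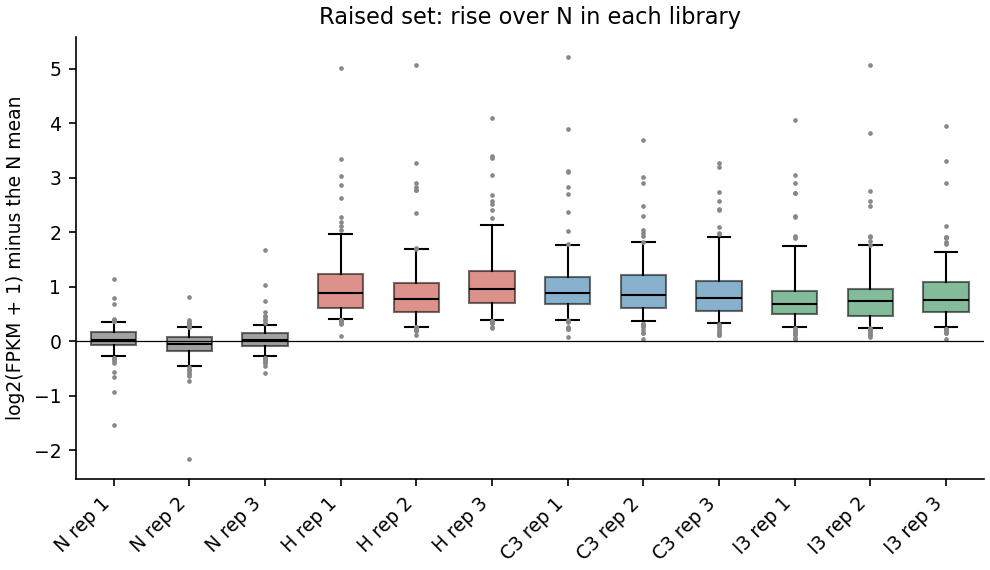
Difference of each member's log2(FPKM + 1) from its N mean (y) in each of the 12 libraries (x), with boxes from the lower to the upper quartile, a line at the median, whiskers from the 5th to the 95th percentile and points beyond. The medians lie between 0.69 and 0.75 in the I3 libraries, between 0.79 and 0.89 in C3 and between 0.77 and 0.97 in H, and the boxes of all chamber libraries overlap.

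Leaving out H replicate 3 changed the order of H and C3. H was then the highest group in 61 members and C3 in 71, and I3 was the lowest group in 85. Without both H replicate 3 and I3 replicate 3, H was highest in 62, C3 in 77 and I3 in 25, and I3 was lowest in 89. Scaling the libraries by their median ratios gave 69 members with H highest and 70 with C3 highest, and 88 with I3 lowest. C3 also came first without C3 replicate 3, in 76 members against 65 for H. The order of H and C3 within the set therefore depended on single libraries and on scaling. With each library left out in turn, I3 was lowest in 80 to 99 members and in 28.7% to 35.3% of all transcripts. Both upper values came without I3 replicate 3.

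The sizes behind these ranks were small. The median difference of I3 from H over the members was -0.13 on the log2 scale, with quartiles of -0.31 and 0.04, against a median of -0.00068 over all transcripts. That of I3 from C3 was -0.12, against 0.02 over all transcripts, and that of C3 from H was -0.01, against -0.02. The I3 to H value was -0.21 without H replicate 2 and -0.06 without H replicate 3. I3 was lower for members at every level in N. It was the lowest group in 20 of 35 members under 1 FPKM in N, in 38 of 77 between 1 and 10, and in 29 of 52 at 10 or more, where all transcripts of those levels gave 33.5%, 31.6% and 28.9%. By size of the rise, I3 was lowest in 57 of the 114 members under 1, in 25 of the 45 between 1 and 2, and in all 5 at 2 or more. No share of all transcripts was computed for these classes, so no trend with the rise is read from them. ENSRNOT00000087567, one of the 5, had mean FPKM of 30.7 in H, 30.1 in C3 and 30.6 in I3. Its I3 libraries stood at 18.4, 10.8 and 62.6, so its rank held on the log2 scale only.

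No single member was shown to differ among H, C3 and I3. The moderated F test of limma called 0 members and 6 of all transcripts, or 0.0389%, at an adjusted p below 0.05. At an unadjusted p below 0.05 it found 20 members, or 12.2%, against 6.31% of all transcripts. This share, and those at an unadjusted p given below, rest on a variance that includes N, whose small spread the rule favoured. The smallest adjusted p of a member was 0.32. It belonged to ENSRNOT00000013058, described below.

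Continuous reoxygenation was set against hypoxia alone first. In C3 against H, limma called 0 members higher and 0 lower, where 0.00648% of all transcripts were called in each direction. At an unadjusted p below 0.05, 4 members were higher, where 3.19% of all transcripts were, and 7 were lower, where 3.67% were. In 7 members all C3 libraries lay above all H libraries (6.95% of all transcripts), and in 12 all lay below (8.66%). These shares of the members, 4.27% and 7.32%, are not above those of all transcripts. ENSRNOT00000064320 had the smallest p among the members higher in C3. It stood at 6.17, 7.89 and 6.13 FPKM in H and at 11.3, 11 and 9.74 in C3, with 7.6, 6.45 and 6.07 in I3, a log2 difference of 0.60 ± 0.16 (SE) that did not pass (adjusted p = 0.681 in limma). ENSRNOT00000012578 came next, with 20.6, 16.6 and 16.6 FPKM in H and 20.6, 24 and 22.4 in C3 (adjusted p = 0.687 in limma). Among those lower in C3, ENSRNOT00000089126 stood at 61.3, 54.2 and 54.6 FPKM in H and at 48.2, 40 and 38.4 in C3, and the log2 difference of -0.42 ± 0.12 missed the threshold too (adjusted p = 0.681 in limma). ENSRNOT00000013439 stood at 15.3, 13.1 and 16.3 FPKM in H and at 12.1, 11 and 10.9 in C3, with the same adjusted p. Apart from ENSRNOT00000012578, these transcripts had no overlap between H and C3.

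Intermittent reoxygenation had more members on its lower side. In I3 against H, limma called 0 members higher, where 0.013% of all transcripts were, and 0 lower, where 0.0194% were. At an unadjusted p below 0.05, 18 members (11%) were lower against 2.66% of all transcripts, and 2 were higher against 2.34%. All I3 libraries lay below all H libraries in 17 members (10.4%), against 5.16% of all transcripts. They lay above them in 1, against 4.69%. ENSRNOT00000013058 stood at 9.82, 8.99 and 8.95 FPKM in H, at 6.48, 5.01 and 7 in I3 and at 4.33, 3.04 and 3.59 in N. Its I3 libraries lay below those of H with no overlap, a log2 difference from H of -0.53 ± 0.14 that did not pass (adjusted p = 0.754 in limma). ENSRNOT00000015353, a transcript of low level, stood at 1.67, 2.52 and 3.06 FPKM in H, at 1.01, 0.901 and 0.875 in I3 and at 0.195, 0.123 and 0.197 in N, with a log2 difference from H of -0.80 ± 0.21 and the same adjusted p. Among the few on the higher side, ENSRNOT00000018057 stood at 5.67, 5.61 and 6.7 FPKM in H and at 7.77, 9.22 and 6.99 in I3 (adjusted p = 0.987 in limma). ENSRNOT00000051349 stood at 1.78, 3.91 and 2.44 FPKM in H and at 13.5, 3.29 and 15.5 in I3, where I3 replicate 2 fell inside the range of H. In C3 it stood at 14.7, 3.81 and 2.05, so that C3 replicate 1 lay between I3 replicate 1 and I3 replicate 3. Without I3 replicate 1, 1 member, ENSRNOT00000021348, was called lower in I3 than in H (adjusted p = 0.0134 in limma), and 8 of all 15435 transcripts were called in either direction in that fit. It stood at 17.1, 16.1 and 13.7 FPKM in H and at 13.8, 3.67 and 3.71 in I3, so that the library left out was the one near H.

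**Figure D5:**
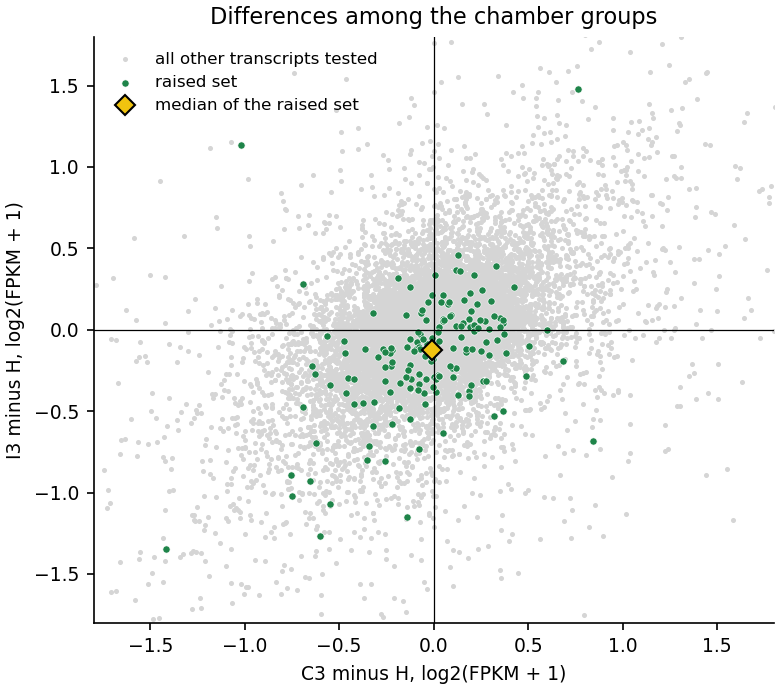
Difference of the group means of log2(FPKM + 1), C3 minus H (x) and I3 minus H (y), for the 164 members (green) and all other transcripts tested (grey), with the median of the members as a yellow diamond at -0.01 and -0.13. More members lie below the horizontal line (114) than above it, and they divide almost evenly about the vertical line. The axes end at 1.8, and 163 transcripts, none of them a member, lie outside.

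The schedules were also set against each other, at equal daily time of enriched gas. In I3 against C3, limma called 0 members higher, as it called 0% of all transcripts, and 0 lower, where 0.00648% of all transcripts were called. At an unadjusted p below 0.05, 23 members (14%) were lower in I3 against 3.25% of all transcripts, and 3 were higher against 3.4%. All I3 libraries lay below all C3 libraries in 28 members (17.1%), against 7.64% of all transcripts, and above them in 5, against 8.16%. ENSRNOT00000013058 again came first, at 12, 11.3 and 12.1 FPKM in C3, a log2 difference of I3 from C3 of -0.85 ± 0.14 (adjusted p = 0.228 in limma, 0.15 to 0.547 over its alternatives). ENSRNOT00000025314 stood at 7.46, 8.12 and 7.17 FPKM in C3, at 4.11, 3.73 and 3.33 in I3, at 5.22, 6.69 and 5.17 in H and at 3.31, 1.57 and 2.77 in N. Its lowest I3 library barely cleared its highest N library, and the log2 difference from C3 was -0.86 ± 0.19 (adjusted p = 0.638 in limma). In both transcripts I3 lay below H and H below C3 with no overlap. Their place above N was required by the rule. On the higher side, ENSRNOT00000086559 stood at 2.52, 3.16 and 2.25 FPKM in C3 and at 3.37, 4.04 and 4.26 in I3 (adjusted p = 0.691 in limma). ENSRNOT00000007620 stood at 1.27, 0.884 and 1.62 FPKM in C3, at 22.9, 19.3 and 1.04 in I3 and at 3.08, 1.68 and 7.53 in H, and did not pass (adjusted p = 0.715 in limma). Its I3 replicate 3 lay within C3. Without that library and H replicate 3 it was called higher in I3 than in C3 (adjusted p = 0.0187 in limma) and than in H (adjusted p = 0.0313 in limma). The libraries left out were its lowest in I3 and its highest in H. In that fit 4 of all 15435 transcripts were called in I3 against C3 and 9 in I3 against H, in either direction.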

How the data were processed

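A single table came from the authors, with 17254 rows of Ensembl transcripts in 12 libraries, and it names no unit. The deposited values were taken as FPKM because the submitters' processing notes name StringTie, beside cutadapt and HISAT2 2.0.5. TPM of a filtered list cannot be told apart from them. The build in those notes, hg19, is human and does not match the rat identifiers, so the rat build is unknown here. StringTie divides reads among transcripts of one gene by estimation, so a transcript can move without its gene, and near-identical copies can share reads. Every listed transcript reached 0.55 in some library. Groups came from the treatment labels.

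Transcripts at 1 FPKM or more in at least 3 libraries were kept (15435, with 1819 left out). Limma 3.58.1 in R 4.3.3 fitted 1 mean per group over 12 libraries on log2(FPKM + 1), with a mean-variance trend and two-sided p-values adjusted by Benjamini-Hochberg over all kept transcripts. A fold on this scale understates changes of low transcripts. Both scripts were tested on simulated data. Identifiers had no match to genes, so the planned gene lists and marker lists were not run. Named transcripts follow a rule: the 2 with the largest rise, the 2 most abundant, per pair of chamber groups the 2 higher and 2 lower with the smallest p, and those nearest the limits of the rule. ENSRNOT00000021348, ENSRNOT00000052288 and ENSRNOT00000087567 were chosen after their values were seen. Members, lists and tests were chosen with earlier results of these data known. Alternatives were a filter at 5 FPKM or none, a pseudocount of 0.1, scaling by median ratios, no trend, only the groups compared, the replicate number as a block, rises of 0.25 and 1, and each library left out.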

Additional observations from a re-analysis of the deposited data

How the results depend on the processing

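The number of raised transcripts was 272 with a rise of 0.25 and 50 with a rise of 1. It was 166 to 405 with a library left out, and it stayed within 1.5 times of 164 under the other settings (122 with a filter at 5 FPKM to 205). I3 stayed the lowest group in more members than H or C3 under every setting run, and its median difference from C3 stayed between -0.17 and -0.11. Its median difference from H ranged from -0.207 to -0.0645 with a library left out. The median difference of C3 from H ranged from -0.04 to 0.02. It turned positive under median ratio scaling and without H replicate 1, H replicate 3 or C3 replicate 3. The same held without H replicate 3 and I3 replicate 3 together. Among H, C3 and I3, no member was called in C3 against H under any setting. I3 against H and the F test gave 0 to 1 with a library left out, where 3 to 12 and 1 to 12 of all 15435 transcripts were called. Without H replicate 3 and I3 replicate 3 together, an alternative added once their position on that component had been seen, the F test, I3 against H and I3 against C3 gave 1 each, of 6, 9 and 4 called in all. Members called against N numbered 9 to 30 for H, 10 to 48 for C3 and 3 to 9 for I3 with a library left out, where all transcripts called in either direction numbered 17 to 58, 21 to 169 and 8 to 31. Fitting only the 2 groups compared gave 9, 14 and 0 members of 42, 35 and 12 transcripts called, and leaving out H replicate 3 and I3 replicate 3 gave 4 of 10 for H and 24 of 51 for C3. For I3 against N, fitting without the trend gave 4 of 12. Fits with fewer libraries have fewer residual degrees of freedom, and other causes of these shifts were not tested.

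With the replicate number, the last digit of the library codes, as a block, 18 members of 28 transcripts were called for H against N, 13 of 25 for C3 and 3 of 10 for I3. Deviations from the group means correlated at -0.04 to 0.13 in the 18 pairs of libraries with the same number, and the best partner of a library had its own number in 5 of 12 cases. No range was taken for pairs with unlike numbers, so these values cannot show whether the libraries were paired. In the main fit the numbers were not taken as pairing. Depth is unknown, and each group has 3 libraries.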
